A study of Drosophila melanogaster with 72 samples.

Results

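The comparison set 36 libraries of Drosophila melanogaster males with mothers of the lines B38, N01 and N02 against 36 libraries of males with mothers of the lines B39, I02 and N23, which together are all 72 libraries of the series. The lines were chosen by a measured value, the level of the antisense RNA asRNA:CR44894, which is high in the first 3 lines and low in the other 3; they are called the high side and the low side here. The question was which other genes, on the X chromosome or elsewhere, were divided between the 6 maternal lines in the same way. Females of 6 mitochondrial replacement lines had been crossed with males of 6 Y chromosome replacement lines (Y haplotypes B04, B11, N03, N07, ZH23 and ZW139), and each of the 36 combinations gave 2 libraries from separate crosses. The lines come from the Global Diversity Lines, where N marks the Netherlands (N01, N02, N23), B Beijing (B38, B39) and I Ithaca (I02), and both kinds of line were described as sharing the nuclear background 4361. Each library was made from a pool of 10 untreated whole males aged 3 to 5 days, so that each side holds all 6 Y haplotypes equally. Per the labels, the 18 libraries of batch 2 are replicate 2 of the Netherlands lines, 12 of them on the high side and 6 on the low side, and the other 54 libraries form batch 1.

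An antisense RNA is transcribed from the strand opposite to another gene, and many such RNAs of Drosophila have no known function. Mitochondria are passed on by the mother alone, and a son also takes his X chromosome from her. A difference between these maternal lines therefore cannot be told apart between the mitochondrial genome, the X chromosome and any other difference among the 6 lines, each of which is 1 replacement line. In a whole fly, fewer cells of a type and less RNA per cell also cannot be told apart.

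Libraries held 2454024 to 7671784 reads counted in genes, with a median of 4831880 on the high side and 4618729 on the low side. Multimapping reads, those aligned to more than 1 place, made up 9.68% to 35.5% of a library, with a median of 12.3% on the high side and 12.2% on the low side. In 6 libraries, the multimapping libraries, this share was over 20%, and 4 of them are replicate 1 of B38 with the Y haplotypes B04, B11, N03 and N07. Marker genes of testis, accessory gland, eye, midgut, fat body, muscle, neurons and blood cells were read on both sides, with summed levels whose ranges overlapped between the sides for every list. The summed neuronal markers ranged from 605 to 1775 CPM (counts scaled by library size) with a median of 966 on the high side, and from 524 to 1095 with a median of 774 on the low side.

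asRNA:CR44894 (FBgn0266199) lies on the minus strand of X from 10114340 to 10208574 in assembly BDGP6.54. Its level is a description, since it set the split. It ranged from 14.0 to 73.0 CPM in B38 with a median of 34.7, from 19.7 to 43.2 CPM in N01 with a median of 30.1, and from 15.5 to 54.9 CPM in N02 with a median of 27.2. It ranged from 0 to 1.29 CPM in B39 with a median of 0.281, from 0 to 11.4 CPM in I02 with a median of 2.23, and from 0 to 29.5 CPM in N23 with a median of 0.515. The low side was thus not of one kind: B39 was near 0 throughout, while in I02 the second library of a combination held more of the RNA than the first in 6 of 6 combinations. Replicate 2 of mtN23_YN03 went against its line, as it held 29.5 CPM from 101 reads and the other N23 libraries at most 1.73 CPM. The 4 multimapping B38 libraries held 33.9, 55.5, 61.3 and 73.0 CPM. The exons of the RNA share bases with exons of other genes, among them CG12645 and Ypel, Ypel lying on the same strand, and an element of the 412 family of retrotransposons is annotated within its span.

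**Figure D1:**
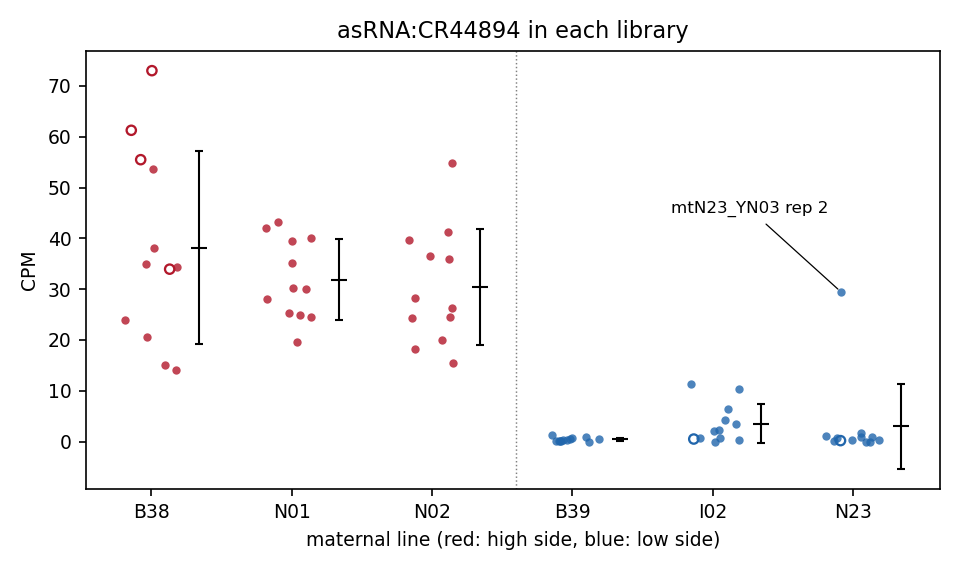
Level of asRNA:CR44894 in CPM (y axis) in each of 72 libraries by maternal line (x axis). Each point is 1 library, open points are the 6 multimapping libraries, and bars give mean and SD over 12 libraries; the low side stays at or below 11.4 CPM except for replicate 2 of mtN23_YN03 at 29.5.

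Among 11088 other genes tested, 53 were called, or 0.478%, by the quasi-likelihood F test of edgeR at a Benjamini-Hochberg adjusted p under 0.05 with Y haplotype and batch in the model. Of these, 19 were higher on the high side (0.171%) and 34 were lower (0.307%). A gene was said to follow the split when it was called and its 3 fitted line levels on 1 side all lay beyond the 3 of the other, by any margin. This held for 39 genes (0.352%), 15 of them higher and 24 lower, while the line levels of 1150 genes, or 10.4%, lay apart in this way whether called or not. A call along the split favours line levels that lie apart, so the 39 among the 53 called genes are a description. The differences were small, with a median size of 0.46 on the log2 scale among called genes, and 6 genes passed a 2-fold difference.

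These p-values take libraries as replicates, whereas 6 lines carry the contrast, and an exact permutation of 3 against 3 lines cannot give a p below 0.1. With the 6 fitted line levels as the units, limma called 1 gene, chas, with 434 genes at an unadjusted p under 0.05 where the test over libraries had 1419. The 4 genes chas, Hsp83, CG2003 and lncRNA:CR44641 stayed called when each of the 6 lines was left out in turn. The number called fell to 10 without line B38, 12 without B39, 17 without N01 and 26 without N23, and rose to 92 without I02 and 135 without N02. Without the 6 multimapping libraries 28 genes were called, 26 of them among the 53. In batch 1 alone 16 genes were called, all among the 53, with fewer libraries and 15 of them following the split. Leaving out mtI02_YZH23 replicate 1, a single library of the low side, raised the count to 145, and without mtN23_YN03 replicate 2 it was 49.

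**Figure D2:**
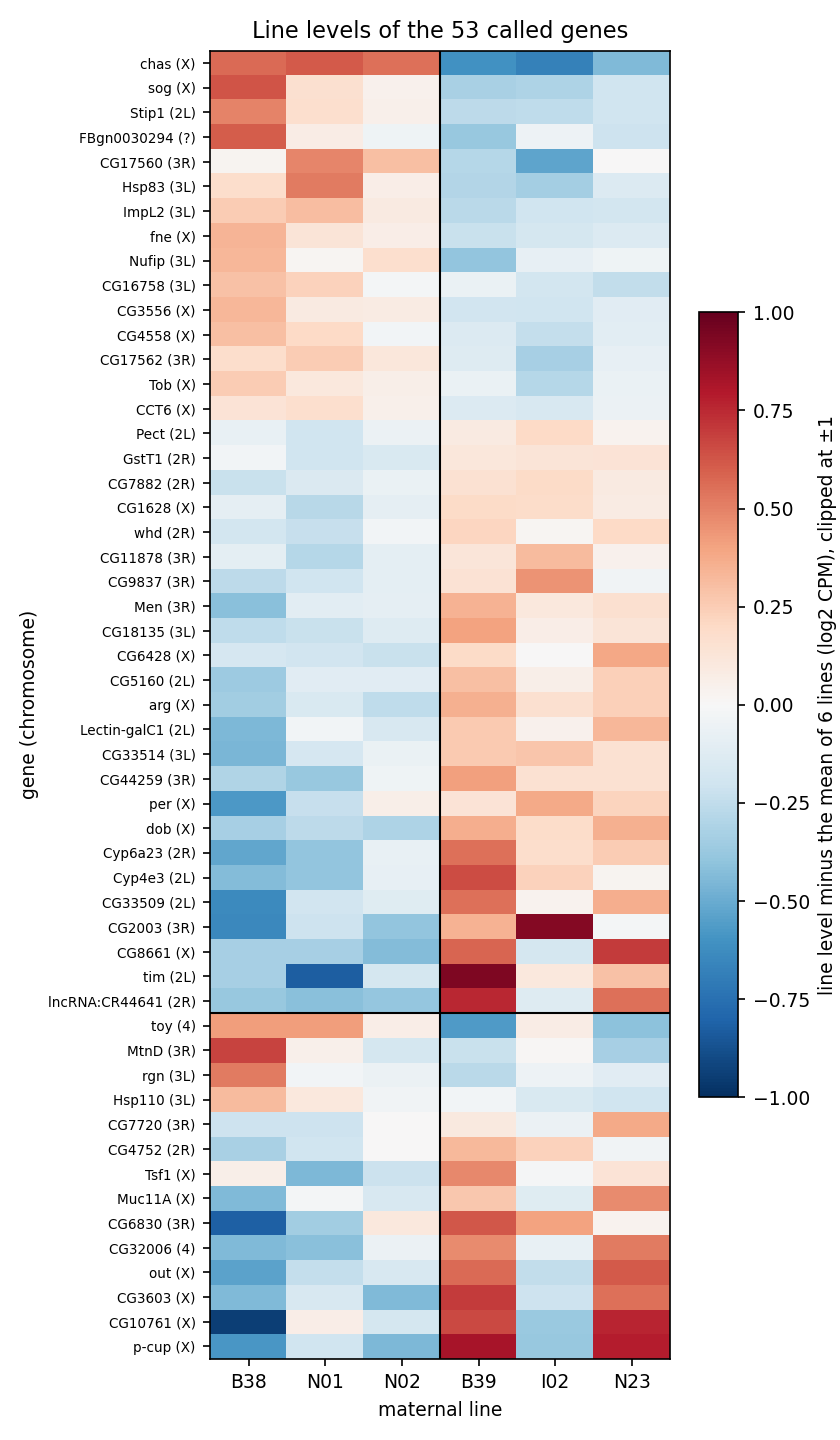
Fitted level of each maternal line (columns) for the 53 called genes (rows, with chromosome; a question mark where no position was matched), as log2 CPM minus the mean of the 6 lines, with colours clipped at 1. The 39 genes above the horizontal line follow the split; the 14 below it were called without their line levels lying apart.

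The gene that followed the split most closely was chas (FBgn0263258; X, 17672458 to 17698730), also known as chascon, a gene known from the polarity of hairs and the muscle attachment sites of the fly. Its level ranged from 7.23 to 13.6 CPM in B38 with a median of 8.08, from 6.88 to 18.1 CPM in N01 with a median of 11.4, and from 3.82 to 18.01 CPM in N02 with a median of 12.7. On the low side it ranged from 1.31 to 10.5 CPM in B39 with a median of 3.19, from 1.03 to 7.71 CPM in I02 with a median of 3.43, and from 1.68 to 11.9 CPM in N23 with a median of 6.25. In CPM not adjusted for batch, the sides overlapped, but 35 of 36 high-side libraries lay above the median of the low side. The log2 fold change was 1.08 ± 0.14 (SE), 2.11-fold, with an adjusted p of 3.85e-07 by edgeR. It stayed called under all 18 alternative analyses, with log2 fold changes from 1.01 to 1.24, and without any 1 of the 72 libraries. With lines as the units the log2 difference was 1.15 (limma adjusted p = 0.00550).

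In each of the 6 Y haplotypes the mean of chas was higher on the high side. The means were 11.1 against 3.15 CPM with Y haplotype B04 and 10.4 against 6.02 CPM with N07, the Y haplotypes at the extremes of that ratio. Within lines, levels of chas and of the antisense RNA did not always move together. In mtN23_YN03 replicate 2 chas stood at 10.5 CPM, above 10 of the other 11 N23 libraries, as the antisense RNA did above all 11. That library is of batch 2, as is the N23 library with more chas, mtN23_YZH23 replicate 2 at 11.9 CPM. These CPM values are not adjusted for batch, and the part of batch in them was not tested. In I02, where the second libraries held more of the antisense RNA in 6 of 6 combinations, chas was higher in the second library in 2 of 6. The span of chas lies 7.46 Mb from that of the antisense RNA on X.

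Hsp83 and 3 genes that work with it or with Hsp70 or fold proteins beside them rose on the high side. Hsp83 (3L, 3192969 to 3197059), the cytosolic Hsp90 chaperone, ranged from 116 to 342 CPM in B38 with a median of 243, from 203 to 383 CPM in N01 with a median of 279, and from 168 to 241 CPM in N02 with a median of 210. It ranged from 123 to 234 CPM in B39 with a median of 174, from 99.9 to 225 CPM in I02 with a median of 160, and from 145 to 242 CPM in N23 with a median of 184. The sides overlapped, with 16 high-side libraries above every low-side library and the highest levels in N01 and in the 4 multimapping B38 libraries. The log2 fold change was 0.50 ± 0.07 (SE; edgeR adjusted p = 1.34e-05), and 0.46 without the 6 multimapping libraries (adjusted p = 0.000390). Exons of Hsp83 share bases with CG14966 on the other strand. It was called under 17 of 18 alternatives, the exception being lines as the units, where the log2 difference was 0.51 (limma adjusted p = 0.969).

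Stip1, the co-chaperone that joins Hsp70 to Hsp90, was 0.55 ± 0.11 higher on the log2 scale (edgeR adjusted p = 0.00402). Its median was 59.5 CPM in B38, against 33.3 to 40.8 CPM in the other 5 lines, and its log2 fold change was 0.33 without the 6 libraries (adjusted p = 0.0223). Hsp110, a nucleotide exchange factor of Hsp70, was 0.28 ± 0.06 higher (adjusted p = 0.0181). Hsp110 did not follow the split, as its log2 level was 6.485 in N02 and 6.494 in B39. CCT6, a subunit of the chaperonin that folds actin and tubulin, was 0.23 ± 0.06 higher (adjusted p = 0.0428). Neither of the last pair stayed called without the 6 libraries (adjusted p = 0.157 for Hsp110 and 0.152 for CCT6), and the call of CCT6 was lost with any of 59 single libraries left out. In a list of 16 genes of the Hsp90, Hsp70, Hsp110 and chaperonin machinery, drawn up after these values had been seen, 4 rose and 0 fell. Its median log2 fold change was 0.205, against a median of -0.0041 over all genes tested, of which 0.478% were called. The 4 are the genes named above, so the counts, median and signs of this list describe it and test nothing. All 16 fitted values were above 0, and among the 12 that did not pass were CCT3 at 0.26 (adjusted p = 0.165) and Hsc70-4, the main constitutive Hsp70, at 0.14 (adjusted p = 0.489). Of 18 heat shock chaperones tested in the wider list, Hsp83 and Hsp110 rose and 0 fell, with 0.478% called over all genes tested. The stress-inducible Hsp68, named after its value was seen, stood at 0.29 ± 0.13 on the log2 scale (adjusted p = 0.309) and the small heat shock protein gene Hsp26 at -0.02 ± 0.10 (adjusted p = 0.937).

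**Figure D3:**
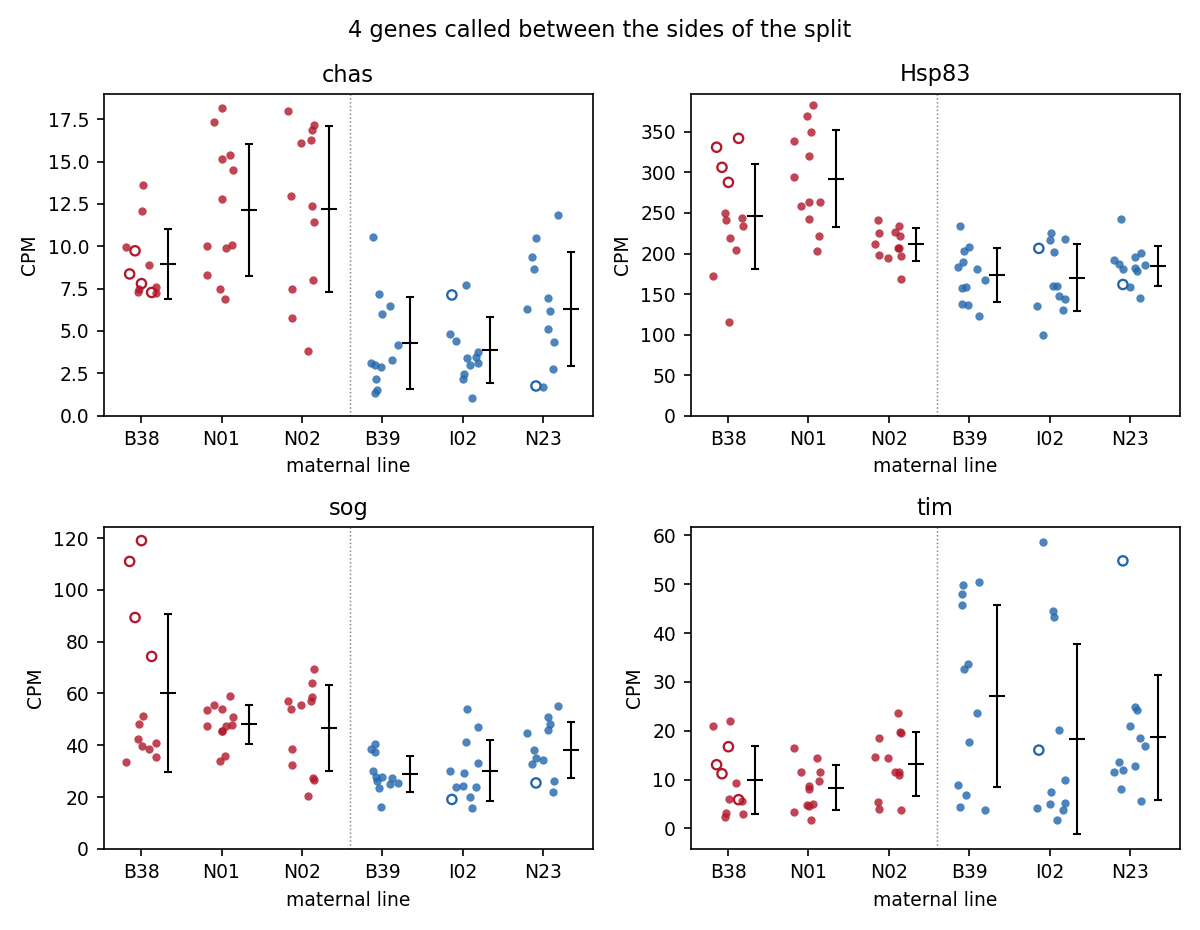
Levels in CPM (y axes, each from its own scale) of chas, Hsp83, sog and tim in 72 libraries by maternal line (x axes; red for the high side, blue for the low side). Points are libraries, open points the 6 multimapping libraries, bars mean and SD over 12 libraries; the sides overlap for all 4 genes, and the open B38 points are the highest for sog.

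sog and fne also rose on the high side. sog (X, 15603283 to 15633434), a secreted antagonist of BMP signalling, ranged from 20.2 to 119 CPM on the high side with a median of 48.0, and from 15.8 to 55.2 CPM on the low side with a median of 29.6. The log2 fold change was 0.63 ± 0.12 (edgeR adjusted p = 0.00165). Its 4 highest libraries were the multimapping B38 libraries, and without all 6 the log2 fold change was 0.37 (adjusted p = 0.0485). fne, an RNA-binding protein of the ELAV family found in neurons, ranged from 85.3 to 277 CPM on the high side with a median of 132, and from 60.2 to 163 CPM on the low side with a median of 105. It was 0.38 ± 0.08 higher on the log2 scale (adjusted p = 0.00539). Leaving out the 6 multimapping libraries gave 0.25 (adjusted p = 0.0485).

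fne was the 1 gene called among 18 neuronal markers, where 0.478% of all genes tested were called. The list had 17 of 18 fitted values above 0 and a median log2 fold change of 0.155, against -0.0041 over all genes tested. In it, elav stood at 0.31 (edgeR adjusted p = 0.0977) and the sodium channel gene para at 0.27 (adjusted p = 0.0931). The part of this list, and of multimapping reads, in the calls of sog and fne was not tested. ImpL2, a secreted protein that binds insulin-like peptides, was 0.43 ± 0.11 higher (adjusted p = 0.0366), and its exons share bases with CG46460 on the same strand. Its call did not hold without the 6 libraries (log2 fold change 0.36, adjusted p = 0.0846), nor when any of 15 single libraries was left out. CG17560, which like its neighbour CG17562 encodes a member of the fatty acyl-CoA reductase family, was 0.50 ± 0.10 higher (adjusted p = 0.00510), and CG17562, named after its value was seen, 0.33 ± 0.08 (adjusted p = 0.0188). The remaining genes among the 10 highest that followed the split were CG16758 at 0.36, Nufip at 0.37 and FBgn0030294, a feature with no position here, at 0.51. All 3 lost their calls without the 6 libraries, CG16758 at 0.26 (adjusted p = 0.128), Nufip at 0.33 (adjusted p = 0.182) and FBgn0030294 at 0.28 (adjusted p = 0.634). Leaving out a single library ended the call of Nufip in 39 cases and of FBgn0030294 in 19. The line levels of the sides lay only 0.010 apart on the log2 scale in FBgn0030294. In CG17560 they lay 0.023 apart, with B38 at 7.03 and N23 at 7.01.

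Among the genes lower on the high side, CG2003 (3R) had the smallest adjusted p. It ranged from 4.07 to 12.6 CPM on the high side with a median of 7.92, and from 3.68 to 30.8 CPM on the low side with a median of 14.5. I02 held the highest level of it, with a median of 20.7 CPM, while N23 with a median of 10.5 CPM was the low-side line closest to the high side. The log2 fold change was -0.95 ± 0.14 (edgeR adjusted p = 1.34e-05), and 23 low-side libraries lay above every high-side library. The noncoding RNA lncRNA:CR44641 (2R) had a log2 fold change of -1.08 ± 0.19 (adjusted p = 0.000371). Its median was 1.37 to 1.49 CPM in the 3 high-side lines, 4.14 CPM in B39, 3.39 CPM in N23 and 2.03 CPM for I02, from at most 57 reads in a library. It was the 1 gene called among 445 long noncoding RNA genes tested, where 0.478% of all genes tested were called.

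Of 13 circadian clock genes, listed after these values had been seen, 2 fell and 0 rose on the high side. Over all genes tested 0.478% were called. tim, which forms the repressor of the clock with per, ranged from 1.66 to 23.7 CPM on the high side with a median of 10.4, and from 1.67 to 58.7 CPM on the low side with a median of 16.5. The log2 fold change was -1.06 ± 0.25 (edgeR adjusted p = 0.0181). The 12 highest libraries of tim were on the low side, but low values occurred in every line, and the call was lost without mtB39_YN07 replicate 2 (adjusted p = 0.0560). per ranged from 2.34 to 9.93 CPM with a median of 5.03 on the high side and from 3.26 to 17.8 CPM with a median of 7.45 on the low side. It had a log2 fold change of -0.55 ± 0.13 (adjusted p = 0.0181). Leaving out the 6 multimapping libraries gave -0.44 (adjusted p = 0.196). Exons of per share bases with dyw on the other strand, and those of tim with a small nucleolar RNA gene on 1 strand and lncRNA:CR46495 on the other. Of the other 11 clock genes, vri stood at -0.23 (adjusted p = 0.263), Clk at 0.0077 (adjusted p = 0.990) and cry, the blue-light receptor, at -0.10 (adjusted p = 0.705).

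Of 122 detoxification enzymes tested, 3 fell and 0 rose, with 0.478% called over all genes tested and a list median of -0.05. These were the cytochrome P450 genes Cyp4e3 (-0.66 ± 0.14, edgeR adjusted p = 0.00539) and Cyp6a23 (-0.65 ± 0.16, adjusted p = 0.0428) and the glutathione transferase gene GstT1 (-0.25 ± 0.05, adjusted p = 0.00510). The call of Cyp6a23 was lost without the 6 multimapping libraries (-0.48, adjusted p = 0.289) and when any of 28 single libraries was left out. Cyp4e3 was also the 1 gene called among 8 fat body markers tested, whose median was -0.24 and whose summed level ranged from 1051 to 4134 CPM on the high side and from 1249 to 3702 CPM on the low side; the part of fat body content in these calls was not tested. Named after their values were seen, the called genes also took in Men, the cytosolic malic enzyme, at -0.41 ± 0.10 (adjusted p = 0.0390), whd, the mitochondrial carnitine palmitoyltransferase, at -0.31 ± 0.08 (adjusted p = 0.0366), Pect, an enzyme of phosphatidylethanolamine synthesis, at -0.22 ± 0.05 (adjusted p = 0.0177), and arg, arginase, at -0.47 ± 0.12 (adjusted p = 0.0428). dob, a lipase of the adipose triglyceride lipase family, had a log2 fold change of -0.59 ± 0.13 (adjusted p = 0.0157). These 5 genes followed the split, but without the 6 multimapping libraries Pect was the 1 still called. A single library left out ended the call of Men in 40 cases, of arg in 31 and of whd in 18. The other genes among the 10 lowest that followed the split were CG33509 at -0.73 and CG44259 at -0.52. Neither was called without the 6 libraries (-0.58, adjusted p = 0.181 for CG33509, and -0.44, adjusted p = 0.104 for CG44259), and any of 8 single libraries left out ended the call of CG33509. CG33514, at -0.49 ± 0.09 (adjusted p = 0.00209), was the gene whose lower level on the high side was seen in the most pairs of libraries.

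By the share of pairs of 1 high-side and 1 low-side library in which the high-side library had the higher CPM, asRNA:CR44894 reached 98.8%, a value that the choice of lines by this RNA favours. The 5 most alike were chas at 90.6%, Hsp83 at 88.0%, CG17560 at 84.1% and sog at 82.8%, and in the opposite direction CG33514 at 15.0%. These shares come from CPM not adjusted for batch, with 12 batch 2 libraries on the high side and 6 on the low side.

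In several called genes, high levels were found in some libraries of a low-side line rather than in the line as a whole. The genes p-cup, CG8661, CG3603, out, CG10761 and CG32006, picked after their values were seen, had log2 fold changes from -1.20 to -0.85 and fitted levels that set B39 and N23 apart from the other 4 lines. p-cup, a gene transcribed in late spermatids, ranged from 0.492 to 4.38 CPM on the high side with a median of 2.21, from 1.45 to 25.7 CPM in B39, from 2.05 to 12.2 CPM in N23 and from 0.307 to 5.09 CPM in I02. In 5 of 12 B39 libraries and 5 of 12 N23 libraries at least 5 of the 6 genes lay above every high-side library, while in 5 other B39 libraries and 6 other N23 libraries none of them did. The 2 libraries of one combination could differ in this way. CG8661 stood at 63.4 CPM in mtB39_YB11 replicate 1 and at 9.66 CPM in replicate 2, and at 77.1 CPM in mtN23_YB04 replicate 1 and at 17.0 CPM in replicate 2. In I02 at most 3 of the 6 lay above the high side in any library. p-cup was the 1 gene called among 22 testis markers tested, where 0.478% of all genes tested were called. The median of these markers was -0.04, and their summed level ranged from 5443 to 9166 CPM on the high side and from 5625 to 10020 CPM on the low side. Their part in these calls was not tested.

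The largest step between neighbouring line levels, a description added after the values were seen, fell exactly at the split in 7 of the 53 called genes and in 1.16% of all genes tested. The genes were called along the same split on these libraries, which favours such a step, so these shares test nothing. In those 7, chas, ImpL2, CCT6, GstT1, CG7882, dob and arg, the 3 lines of 1 side stood together. In 15 called genes the largest step set B38 apart from the other 5 lines, as in sog, Stip1, fne and the metallothionein gene MtnD, and in 11 it set B39 and N23 apart from the rest. The same step set B38 apart in 32.1% of all genes tested, and B39 and N23 in 1.90%. MtnD, at 0.45 ± 0.10 (edgeR adjusted p = 0.0128), had a median of 149 CPM in B38 and of 74.0 to 109 CPM in the other 5 lines. Without the 6 multimapping libraries it stood at 0.31 (adjusted p = 0.292). It was the 1 of 5 metallothionein genes called, where 0.478% of all genes tested were called, while MtnB stood at -0.69 ± 0.19 (adjusted p = 0.0878).

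The X chromosome held 19 of the 53 called genes, 7 higher and 12 lower, or 1.13% of 1687 X-linked genes tested. Of 9276 autosomal genes 33 were called, or 0.356%. No test was made of this difference, and linked genes do not vary independently between lines. The line levels lay apart in 10.7% of X-linked and 10.4% of autosomal genes, and the median log2 fold change was 0.016 on X and -0.0070 on the autosomes. Of the 6 Y-linked genes tested and the 27 transcripts of the mitochondrial genome, 0 were called. At an unadjusted p under 0.05 in edgeR there were 0 of the 6 and 4 of the 27, against 1419 of 11088 over all genes tested. DESeq2 called 0 of the 6 and 1 of the 27. By edgeR mt:CoII, a subunit of cytochrome c oxidase, came nearest at -0.38 ± 0.10 (adjusted p = 0.0660). It stayed uncalled under 13 of 18 alternatives, but any of 4 single libraries left out brought a call. Within the Netherlands, N01 and N02 against N23, it was called at -0.49 (edgeR adjusted p = 0.0253). Within Beijing, B38 against B39, it stood at -0.43 (adjusted p = 0.161).

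The called genes on X were counted by their distance from the antisense RNA. Within 0.5 Mb of it 1 of 60 genes tested was called, or 1.67%, CG1628 at -0.31, within 2 Mb 3 of 343, or 0.875%, and within 5 Mb 6 of 765, or 0.784%. Beyond 5 Mb 13 of 922 were called, or 1.41%. Of 19 other genes whose span overlaps the RNA or lies within 50 kb of it, 8 were too low to be tested. Of the 11 tested, edgeR and DESeq2 each called 0, with log2 fold changes of all 11 from -0.41 to 0.37. An unadjusted p under 0.05 in edgeR was found for 4 of them, and for 1419 of 11088 over all genes tested. ZAP3, on the same strand, stood at 0.37 ± 0.11 on the log2 scale (adjusted p = 0.0931), falling to 0.09 at the lowest among the alternatives. Further along X, CG8661, p-cup and chas lay within 0.41 Mb, the first pair lower and chas higher on the high side. This stretch was drawn from CG8661 to chas after the calls were seen. Its 3 called genes of 21 tested, where 1.13% of X-linked genes were called, therefore say nothing about clustering.

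**Figure D4:**
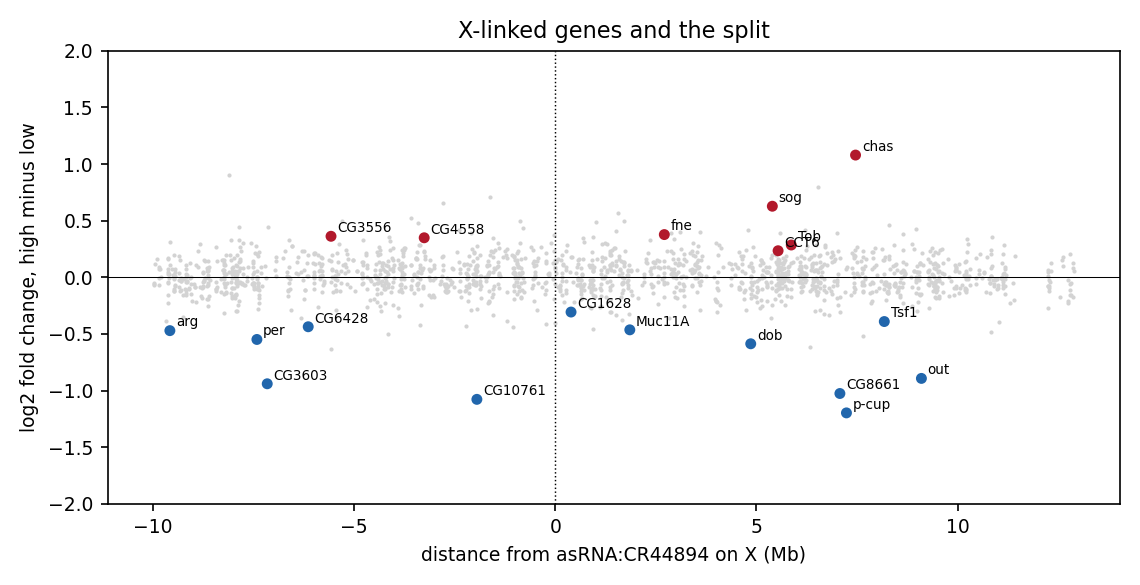
Log2 fold change, high side minus low side (y axis), of the 1687 X-linked genes tested against their distance from asRNA:CR44894 in Mb (x axis, negative towards lower positions). Named points are the 19 called genes, red for higher and blue for lower on the high side; 1 of them, CG1628, lies within 0.5 Mb of the antisense RNA.

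The split runs through both populations that have more than 1 line, and each was also compared within itself on libraries the other did not use. In Beijing, B38 against B39, 28 of 11092 genes were called (0.252%), 20 higher and 8 lower in B38, with 2052 at an unadjusted p under 0.05. In the Netherlands, N01 and N02 against N23, 19 of 11237 were called (0.169%), 5 higher and 14 lower in N01 and N02, with 729 at an unadjusted p under 0.05. Called in the split and on the same side in both populations were 2 of 10985 genes, or 0.0182%, lncRNA:CR44641 and CG10761. The calls common to both populations made up 7.14% of those in Beijing and 10.5% of those in the Netherlands.

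lncRNA:CR44641 had a log2 fold change of -1.41 in Beijing (edgeR adjusted p = 0.0131) and of -1.17 in the Netherlands (adjusted p = 0.0253), and CG10761 of -1.90 (adjusted p = 0.0462) and -0.97 (adjusted p = 0.0292). CG10761 did not follow the split, as I02, a line in neither comparison, had a log2 level of 1.69, below N02 at 1.90 and N01 at 2.13. With Y haplotype N03 its mean was also not lower on the high side (3.41 against 3.23 CPM). In both genes the largest step between line levels set B39 and N23 apart from the rest. Exons of CG10761 share bases with CG15337 on the other strand. chas was close to the threshold in Beijing at 1.14 ± 0.25 (adjusted p = 0.0540) and past it in the Netherlands at 0.92 ± 0.20 (adjusted p = 0.0397), and Hsp83 stood at 0.48 (adjusted p = 0.0960) and 0.43 (adjusted p = 0.00253). sog stood at 1.03 in Beijing (adjusted p = 0.0487) and at 0.31 in the Netherlands (adjusted p = 0.612), a difference that was itself not called (adjusted p = 0.143). All 53 called genes had the sign of the split in both populations, which the choice of them on these same libraries favours, and 34 of the 53 were called in neither. The Beijing count was 1 without the 4 multimapping B38 libraries (1060 genes at an unadjusted p under 0.05), and the Netherlands count was 0 in batch 1 alone, with 498 genes at an unadjusted p under 0.05. Leaving out single libraries gave 3 to 220 calls in Beijing, with a change of over 1.5 times in 22 of 24 cases. The 2 genes called in both populations became 1 with RLE size factors and 0 without the 6 multimapping libraries.

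**Figure D5:**
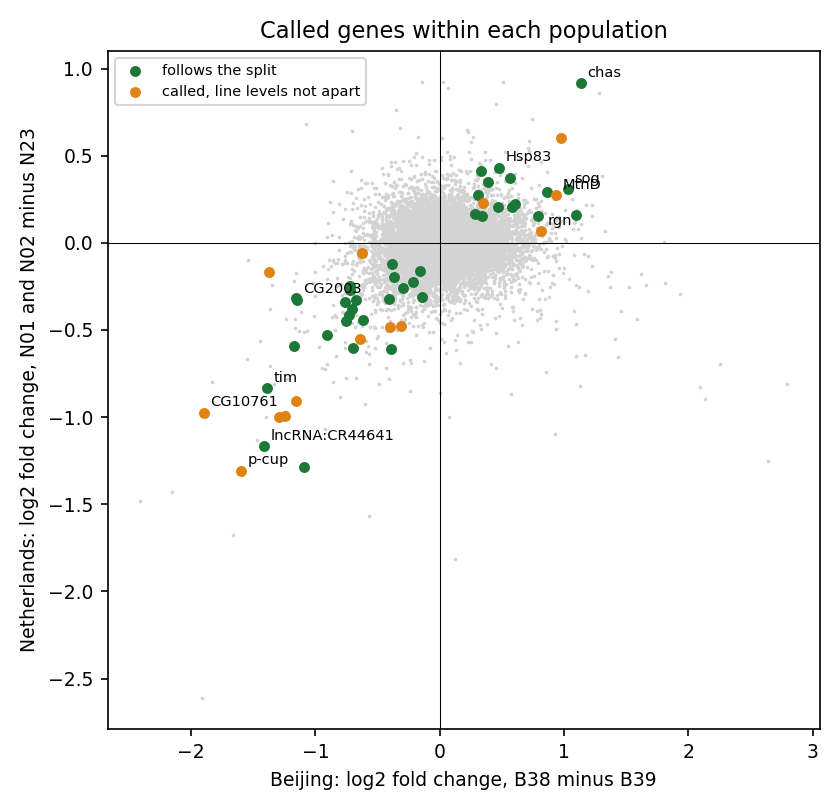
Log2 fold change in Beijing (x axis, B38 minus B39) and in the Netherlands (y axis, N01 and N02 minus N23) for all genes tested (grey) and for the 53 genes called in the split (green where they follow it, orange where their line levels do not lie apart). All 53 lie in the quadrants of equal sign; chas stands at 1.14 and 0.92.

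In 14 further gene groups, 497 genes together, edgeR and DESeq2 each called 0. In edgeR 49 of the 497 had an unadjusted p under 0.05, against 1419 of 11088 over all genes tested. With 0.478% of all genes called, a count of 0 in a list this short says little about its group. These were 86 nuclear respiratory chain subunits (median log2 fold change -0.0060), 71 mitochondrial ribosomal proteins (-0.011), 20 genes of mitochondrial DNA maintenance and protein import (-0.0067), 8 genes of dosage compensation of the X (-0.04) and 129 other antisense RNA genes (-0.07). The same held for 29 antimicrobial peptides (-0.23), 40 digestive enzymes (-0.02), 58 seminal fluid proteins (-0.09) and the markers of accessory gland and ejaculatory duct (-0.05), eye (-0.14), midgut (-0.03), muscle (0.17), blood cells (-0.03) and female germline and eggshell (0.40, 2 tested). Stellate and Osiris genes were too low to be tested. In dosage compensation, the RNA roX2 came nearest at 0.24 ± 0.07 (adjusted p = 0.0932).

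Single libraries kept to their side to a varying degree. For each library, the 39 genes that follow the split were counted as lying on the high or the low side of the midpoint between the medians of the sides, which describes them and tests nothing, as they were chosen on these libraries. The median share on the high side was 82.1% in B38, 76.9% in N01 and 65.4% in N02, and for the low side 23.1% in B39, 25.6% for I02 and 29.5% for N23. The ranges met, as N02 reached down to 46.2% and B38 to 38.5%, while I02 reached up to 66.7%. mtN23_YN03 replicate 2, the library with 29.5 CPM of the antisense RNA, had 21 of the 39 genes on the high side, or 53.8%. No N23 library had more, but mtN23_YN07 replicate 1, with 0.789 CPM of that RNA, had as many.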

How the data were processed

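Whole males were profiled with the Lexogen QuantSeq 3' FWD kit after Trizol extraction, per the labels' protocols, so that counts come from transcript ends and are not corrected for gene length. The authors deposited raw read counts per gene for 72 libraries, in 1 table whose 72 columns matched the per-library files exactly; their normalized table was left aside. Per the submitters' processing notes, the tools were STAR 2.6, HTSeq 0.11.0, Trimmomatic 0.36, FastQC 0.11.5 and DESeq2; for build, annotation and strand setting nothing is given in the sources used here. Of 17324 features, 17037 matched the Ensembl 115 annotation of BDGP6.54 by gene identifier, which gives all symbols and positions here. Of the 53 called genes, 18 share exon bases with another gene there, 7 of them on the same strand. How reads in those bases were assigned cannot be told here, since the strand setting is not given.

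Counts were filtered with filterByExpr on the split, scaled by TMM and fitted with Y haplotype and batch by the quasi-likelihood method of edgeR 4.0.16 in R 4.3.3; p-values are 2-sided, with adjustment over every gene tested. Line levels came from limma 3.58.1, fitted to log2 CPM (prior count 2) with terms for maternal line, Y haplotype and batch, a choice of tool made after values had been seen. Beijing (24 libraries) and the Netherlands (36) were fitted alone, and their difference was tested in 1 model with maternal line. Standard errors are those implied by the F statistic. Scripts were tested on simulated data. The labels place replicates in separate crosses. Samples were grouped by the labels' maternal line, the lines by asRNA:CR44894. Named were that RNA, genes within 50 kb of it, genes called in both populations, the 10 highest and 10 lowest that follow the split at a mean log2 CPM of 1 or more, the 5 most alike by library pairs, and up to 3 members per list; of these, many stand in counts and ranges alone, and 1 is not reported here. Other genes are named after their values were seen or as examples of a list. The members, lists, tests and most alternatives were chosen with earlier results of these data known. No sequences were read. Alternatives were DESeq2 1.42.0, RLE size factors, no filter, no batch term, batch 1 alone, a replicate block, the line or the 36 combinations in the model, lines as units, and leaving out lines or libraries.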

Additional observations from a re-analysis of the deposited data

Results flagged for a closer look

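The effect of the split on rgn, a C-type lectin gene known from regeneration of imaginal discs, differed between the populations. In Beijing its log2 fold change was 0.81 (edgeR adjusted p = 0.00317) and in the Netherlands 0.07 (adjusted p = 0.983), a difference of 0.75 ± 0.15 (SE; adjusted p = 0.0362). Over all genes tested this difference was called for 16, and rgn was the 1 of the 53 genes called in the split among them. Its mean was 87.1 CPM in B38, against 49.6 to 70.0 CPM in the other 5 lines, and its line levels did not lie apart by the split. The call in the split was lost without mtB38_YB11 replicate 1 (adjusted p = 0.0811) and without 6 other single libraries. Without the 6 multimapping libraries its log2 fold change in the split was 0.22 (edgeR adjusted p = 0.43). The difference between the populations was not tested without those libraries.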

How the results depend on the processing

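The 53 calls of the split became 55 with RLE size factors, 75 with DESeq2, 55 with maternal line in the model, 37 with the 36 combinations in the model and 49 without mtN23_YN03 (2), its replicate 2. They became 90 with no filter on low counts, 16 in batch 1 alone, 28 without the 6 multimapping libraries and 1 with lines as units. Leaving out a line gave 10 (B38), 17 (N01), 135 (N02), 12 (B39), 92 (I02) and 26 (N23), and leaving out line I02 with that N23 library, an alternative added after the data were seen, gave 81. The 39 genes that follow the split became 63 with no batch term, 15 in batch 1 alone, 20 without the 6 libraries and 1 with lines as units. Leaving out single libraries gave 36 to 145 called and 26 to 117 that follow, the highest both without mtI02_YZH23 replicate 1; 34 of the 53 stayed called without any 1 of the 72. The 28 calls in Beijing became 10 with RLE size factors and 1 without the 6 libraries; single libraries moved them to 3 to 220, and by over 1.5 times in 22 of 24 cases, all but mtB39_YN07 replicate 1 and mtB39_YZH23 replicate 1. The 19 calls in the Netherlands became 33 with no filter and 0 in batch 1 alone, and 10 to 22 without single libraries, with 10 to 12 without mtN01_YZH23 replicate 1, mtN23_YB04 replicate 2, mtN23_YB11 replicate 1, mtN23_YB11 replicate 2 or mtN23_YZH23 replicate 1. The 2 genes called in both became 1 with RLE size factors and 0 without the 6 libraries. The causes were not tested, though leaving out libraries also lowers the number of samples. No named gene that was called under either setting changed sign; a change of sign of a gene called under neither was not counted.

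Replicate numbers were not taken to pair the samples, since only 335 of 630 pairs of combinations had deviations of same-numbered libraries that correlated over 0.1 (median 0.114). With a replicate block 51 genes were called in the split, 39 of them among the 53, 38 followed it, 331 were called in Beijing, and 5 in both populations; in the Netherlands the replicate number is the batch, so that fit already held it.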
